A study of Mus musculus with 6 samples.

Results

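Interleukin 2 (IL-2), its receptor and the STAT5 branch of its signalling were followed here through 10 genes. They are the cytokine gene Il2, the receptor chains Il2ra, Il2rb and Il2rg, the kinases Jak1 and Jak3, the transcription factors Stat5a and Stat5b, and the feedback inhibitors Cish and Socs2. The genes were taken by name from a deposited gene table of 24182 genes, and all 10 were found and passed the filter on low values. The libraries are bulk RNA from mouse Th17 cells, helper T cells that make interleukin 17. The first group is 3 libraries labelled Sirt2 KO, in which Sirt2, a NAD-dependent deacetylase gene, was targeted with CRISPR/Cas9. The second is 3 control libraries labelled Sirt2 WT. Cells of both groups were labelled untreated apart from 72 hours with antibodies against CD3 (0.5 μg/mL) and CD28 (1 μg/mL), a stand-in for antigen and costimulation. The labels give neither the strain and age of the mice, nor the guides and how Cas9 was delivered, nor whether replicates were separate cultures or animals. P-values therefore rest on library-to-library spread, which may be technical.

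IL-2 is the growth factor that activated T cells make and respond to. It binds a receptor of an alpha chain that raises affinity, a beta chain and the common gamma chain. The beta and gamma chains carry JAK1 and JAK3, which phosphorylate STAT5A and STAT5B, and STAT5 then switches on genes that include Il2ra itself and the inhibitors Cish and Socs2. In helper T cells IL-2 acting through STAT5 is known to restrain Th17 differentiation and to sustain regulatory T cells.

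Values are FPKM, that is, fragments corrected for transcript length and for the total of each library, so that levels can be set side by side between genes. Gene values are used unless a transcript is named. For some genes they lay below the value listed for a single transcript of that gene. Read depth is unknown, since the tables hold no counts; gene FPKM summed to between 306034 and 321734 per KO library and between 303772 and 310208 per WT library. Sirt2 measured 11.2, 13.5 and 10.9 FPKM in the KO libraries, against 20.7, 19.9 and 21.9 FPKM in the WT libraries (log2 fold change -0.76, limma adjusted p = 0.0429), so the targeted RNA was lower in each KO library but still present. The Sirt2 call was lost under median scaling, no filter, a filter at 5 FPKM, no mean trend, the replicate block and without KO replicate 1 or any 1 WT library (limma adjusted p from 0.0519 to 0.376). Its log2 fold change lay between -0.85 and -0.71 under every alternative run. KO replicate 3 stood apart from the other KO libraries. Over 10873 tested genes its log2 values correlated at 0.981 and 0.979 with those of KO replicates 1 and 2. Those 2 libraries correlated at 0.992 with each other. With the WT libraries KO replicate 3 correlated at 0.990, and KO replicates 1 and 2 at 0.985 to 0.987, so KO replicate 3 was the nearest to WT. These values run over genes, which do not replicate one another, and do not show which KO libraries are unusual. Fold changes of the 10 genes are therefore given with and without KO replicate 3. T cell identity genes summed to between 865 and 932 FPKM in KO libraries and between 853 and 878 in WT libraries, and all 10 were detected. All 11 Th17 markers were measured too, at a sum between 375 and 532 FPKM in KO libraries and between 524 and 547 in WT libraries. The 7 regulatory T cell markers summed to between 559 and 740 FPKM in KO libraries and between 670 and 699 in WT libraries. Markers of some other cells were higher in KO libraries. Of 11 NK and cytotoxic genes in the table, at any level, 7 had every KO library above every WT library and 0 the reverse, with sums between 26.7 and 30.3 FPKM in KO libraries and between 9.59 and 10.2 in WT libraries. Of the 5 of them tested, 2 rose. Groups were also apart in this direction for 8 of 20 myeloid genes (sums of 65.1 to 72.6 FPKM in KO, 55.0 to 58.5 FPKM in WT) and for 5 of 14 B cell genes (55.0 to 62.0 FPKM in KO, 48.5 to 49.7 FPKM in WT), again with 0 the reverse, but 0 of the 4 myeloid and 3 B cell genes tested were called. All KO libraries also lay higher for 2 of 10 T cell identity, 2 of 11 Th17 and 2 of 7 regulatory T cell genes. The reverse held for 1 Th17 gene. Of all tested genes 4.28 percent were higher in all KO libraries and 6.88 percent lower. These shares leave out genes below the filter, which the marker counts include. Erythroid and fibroblast genes summed to between 2.45 and 4.26 FPKM in KO libraries and between 3.06 and 4.74 in WT libraries, with 1 of 13 above in all KO libraries. No listed marker was at 0 in all libraries, and the part of these cells in the results below was not tested. In bulk RNA, fewer cells that express a gene and less RNA of it per cell cannot be told apart.

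Il2 was the gene of the pathway whose KO libraries differed most from one another. Il2 (ENSMUSG00000027720, GRCm38 chromosome 3, 37120523 to 37125959, minus strand) measured 46.7, 31.0 and 14.6 FPKM in the KO libraries (replicates 1, 2 and 3, the order used throughout), and 18.4, 20.2 and 17.8 FPKM in the WT libraries. The first and second KO libraries lay above every WT library and the third below every one, so the groups overlapped. The mean was 30.8 ± 16.1 FPKM in KO and 18.8 ± 1.20 FPKM in WT (SD, n = 3 each). The log2 fold change of FPKM + 1 was 0.54 (95% interval from -0.28 to 1.36, limma adjusted p = 0.865 over all tested genes), and an exact two-sided permutation test of the 6 values gave p = 0.4. The difference thus did not exceed the spread between replicates. When KO replicate 3 was left out it was 0.98 (limma adjusted p = 0.0177), past the threshold of 0.05, whereas without KO replicate 1 it was 0.17 (limma adjusted p = 0.999).

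The 2 stretches below lie just before the start sites of Il2 and Il2ra, the cytokine and the receptor chain that differed from WT in opposite directions in each KO library. They come from the RefSeq promoter windows (GRCm38.p6; Il2 at chr3:37125960-37126204, minus strand, and Il2ra at chr2:11642542-11642791, plus strand), and end before the annotated transcript start for Il2 and before the RefSeq start site for Il2ra. The third is the part of the Cish window (chr9:107296655-107296684, plus strand) that holds its STAT5-type motifs. Capitals mark GGAAA, the core letters bound by NFAT factors, on either strand in Il2 and Il2ra, and TTCNNNGAA, the STAT5-type palindrome, in Cish.
Il2: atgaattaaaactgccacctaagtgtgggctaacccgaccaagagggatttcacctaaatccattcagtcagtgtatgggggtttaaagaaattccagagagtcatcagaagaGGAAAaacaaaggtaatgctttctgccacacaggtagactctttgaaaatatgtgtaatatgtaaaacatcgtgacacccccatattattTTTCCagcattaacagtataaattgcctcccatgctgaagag
Il2ra: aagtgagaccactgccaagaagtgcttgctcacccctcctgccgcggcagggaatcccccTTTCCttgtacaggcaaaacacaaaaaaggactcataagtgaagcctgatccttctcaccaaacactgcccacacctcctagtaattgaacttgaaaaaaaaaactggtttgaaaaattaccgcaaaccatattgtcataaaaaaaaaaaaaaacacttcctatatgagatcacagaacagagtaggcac
Cish: agttTTCCTGGAAagTTCTTGGAAatctgt
Windows of 300 bases (250 before the start and 50 after) were found for 8 of the 10 genes, all but Il2rb and Socs2. Stat5a and Stat5b had 2 windows each. GGAAA was in 7 of these 10 windows, with 2 matches for Il2 and 1 for Il2ra, and in 61.5 percent of 32544 windows of the same length. TTCNNNGAA was in the window of Cish alone among the 8, with 2 matches whose first bases lie at positions 1 and 12 from the RefSeq start site, and in 8.33 percent of all windows. Some GGAAA matches in the Cish window share letters with them. The AP-1 motif TGANTCA was in none of the 8 genes' windows and in 7.79 percent of all. A match describes these letters and is not evidence that a factor binds there. The most abundant Cish transcript starts upstream of this window, at position 107296026 of chromosome 9, against 107296659 for the RefSeq start site.

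**Figure D1:**
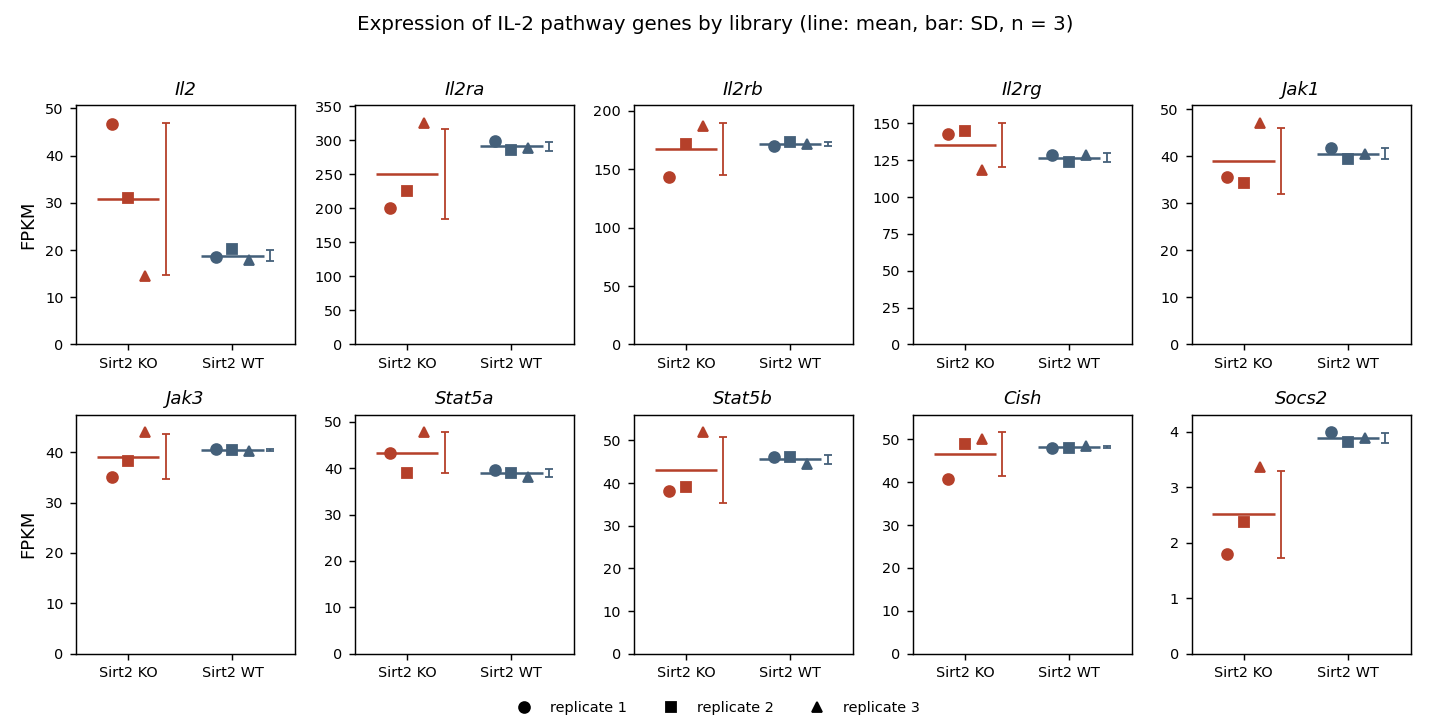
FPKM of the 10 IL-2 pathway genes in each library, Sirt2 KO (red) beside Sirt2 WT (blue), one panel per gene with an axis from 0; symbols are replicates 1 to 3, lines are means and bars are the SD over 3 libraries. KO libraries scatter more widely than WT libraries in every panel, most of all for Il2, which lies between 14.6 and 46.7 FPKM in KO and between 17.8 and 20.2 FPKM in WT.

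The receptor chains were the most abundant RNAs of the pathway, and their groups overlapped as well. Il2ra encodes the alpha chain CD25 (ENSMUSG00000026770, chromosome 2, 11642807 to 11693193). Its level was 201, 226 and 325 FPKM in the KO libraries and 299, 287 and 288 FPKM in the WT libraries. This is the mirror of Il2, since the first and second KO libraries lay below every WT library and the third above. The log2 fold change was -0.25 (95% interval from -0.62 to 0.13, limma adjusted p = 0.865), and -0.45 without KO replicate 3 (limma adjusted p = 0.0123), where Il2ra fell. Without KO replicate 1 it was -0.10. Il2rb, the beta chain shared with the IL-15 receptor (ENSMUSG00000068227, chromosome 15, 78479256 to 78495271), had 143, 171 and 187 FPKM in KO and 170, 173 and 171 FPKM in WT. One KO library was low, one high and one inside the narrow WT range, and the log2 fold change of -0.045 (95% interval from -0.27 to 0.18) stayed below the threshold without KO replicate 3 too (-0.13, limma adjusted p = 0.280). Il2rg, the common gamma chain (ENSMUSG00000031304, chromosome X, 101264378 to 101268255), had 143, 145 and 118 FPKM in KO and 129, 124 and 129 FPKM in WT. It followed the order of Il2, not that of the other chains, with KO replicates 1 and 2 above and KO replicate 3 below all WT libraries, and a log2 fold change of 0.087 (95% interval from -0.12 to 0.29). With that library left out this was 0.18, with a limma adjusted p of 0.0527.

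Among the kinases, Jak1 (ENSMUSG00000028530, chromosome 4, 101152367 to 101265282), which pairs with the beta chain, was at 35.7, 34.4 and 47.1 FPKM in the KO libraries and at 41.8, 39.5 and 40.6 FPKM in WT. Jak3 (ENSMUSG00000031805, chromosome 8, 71676296 to 71690575), which pairs with the gamma chain, was at 35.1, 38.2 and 43.9 FPKM in KO and at 40.7, 40.5 and 40.2 FPKM in WT. Both had the Il2ra order, 2 KO libraries below all WT libraries and KO replicate 3 above them. Their log2 fold changes were -0.068 for Jak1 and -0.055 for Jak3 (limma adjusted p = 0.910 for each). On leaving out KO replicate 3, Jak1 fell (-0.21, limma adjusted p = 0.0485), while Jak3 did not pass (-0.14, limma adjusted p = 0.128).

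The STAT5 genes are neighbours on chromosome 11 and paralogs, and how reads shared between them were counted is unknown here. Stat5a (ENSMUSG00000004043, 100859351 to 100885169, plus strand) measured 43.3, 38.9 and 47.7 FPKM in the KO libraries, and 39.7, 39.0 and 38 FPKM in WT. Here KO replicates 1 and 3 were both above WT and KO replicate 2 lay inside the WT range, an order shared with no other gene of the 10. The log2 fold change was 0.15 (95% interval from -0.047 to 0.34, limma adjusted p = 0.843), and 0.074 without KO replicate 3 (limma adjusted p = 0.436). Stat5b (ENSMUSG00000020919, 100780731 to 100850724, minus strand) measured 38.1, 39.1 and 51.9 FPKM in KO and 46.2, 46.1 and 44.4 FPKM in WT. It had the Il2ra order, with a log2 fold change of -0.094 (95% interval from -0.36 to 0.18), and fell without KO replicate 3 (-0.23, limma adjusted p = 0.0334).

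In gene FPKM as deposited, the feedback inhibitor gene Socs2 was the only one of the 10 whose groups did not overlap. Socs2 (ENSMUSG00000020027, chromosome 10, 95385362 to 95417180), a suppressor of cytokine signalling, was at 1.81, 2.37 and 3.36 FPKM in the KO libraries, and at 3.99, 3.81 and 3.89 FPKM in WT. Every KO library was below every WT library, the smallest gap being that of KO replicate 3. This gene FPKM was the lowest of the pathway in both groups. The log2 fold change was -0.50 (SE 0.155, 95% interval from -0.86 to -0.14), with an unadjusted limma p of 0.0130 and an adjusted p of 0.817. By exact permutation p was 0.1, and no smaller p can be had with 3 libraries a group. Of all tested genes 6.88 percent were lower in all KO libraries, so 1 of 10 is near the background. None of the 10 genes was higher in all KO libraries on this scale, as 4.28 percent of tested genes were. After median scaling Stat5a was (log2 fold change 0.19, limma adjusted p = 0.878). Leaving out KO replicate 3, Socs2 fell by 0.67 on the log2 scale (limma adjusted p = 0.0160). The authors' deposited table gives Socs2 a p of 8.22e-04 and a q of 0.132, the smallest q of the 10 genes, the other 9 being close to 1. Cish, the inhibitor that STAT5 induces and that binds the IL-2 receptor (ENSMUSG00000032578, chromosome 9, 107296026 to 107302784), had 40.8, 48.9 and 50.1 FPKM in KO and 48.0, 47.9 and 48.4 FPKM in WT. KO replicate 1 was low while the other KO libraries lay slightly above the WT range, and the log2 fold change was -0.052 (95% interval from -0.25 to 0.15, limma adjusted p = 0.910), or -0.11 without KO replicate 3 (limma adjusted p = 0.377).

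With all libraries, limma called 0 of the 10 genes, against 0.11 percent of all tested genes, and 1 of 10 (Socs2) had an unadjusted p under 0.05, against 5.61 percent of all. The median log2 fold change of the 10 was -0.053, beside -0.025 over all tested genes. In the fit without KO replicate 3, Il2 rose and Il2ra, Jak1, Stat5b and Socs2 fell. That is 5 of 10 called, 1 higher and 4 lower, where 10.1 percent of all tested genes were called, 4.0 percent higher and 6.14 percent lower. The median was -0.13, beside -0.039 over all. These 5 calls rest on leaving out 1 library, and none was made when any other library was left out instead.

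**Figure D2:**
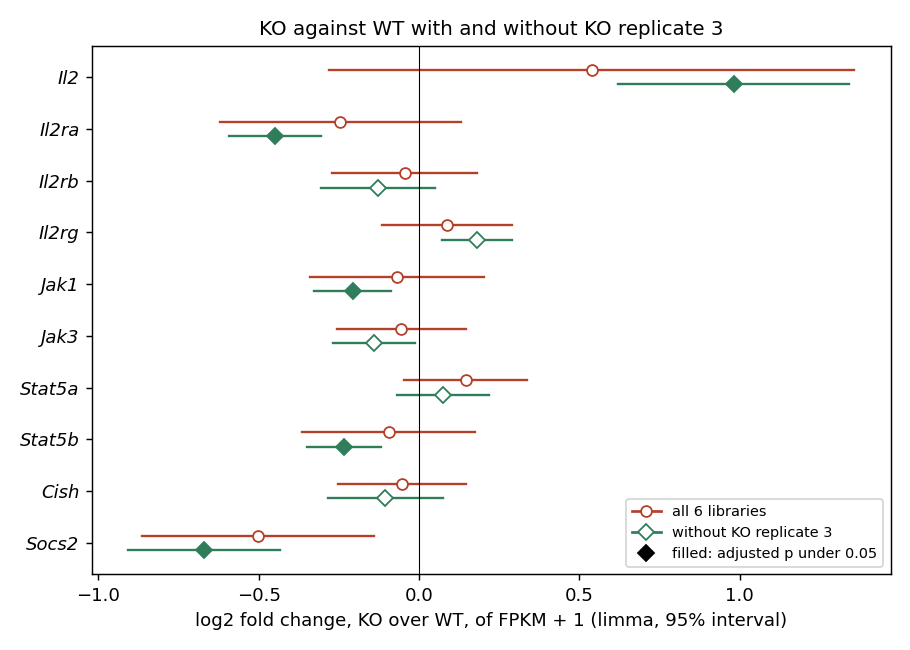
Log2 fold change of FPKM + 1, KO over WT, with the 95% interval from limma, for each of the 10 genes with all 6 libraries (red circles) and without KO replicate 3 (green diamonds); filled symbols passed an adjusted p of 0.05. No red symbol is filled, whereas without KO replicate 3 Il2 (0.98) is filled on the right and Il2ra, Jak1, Stat5b and Socs2 on the left.

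The spread between KO libraries was compared across the pathway as the SD of log2(FPKM + 1). For Il2 it was 0.82 over the KO libraries and 0.087 over the WT libraries. Over the KO libraries it was 0.36 for Il2ra, 0.32 for Socs2 and 0.24 for both Jak1 and Stat5b. The remaining genes were at 0.19 (Il2rb), 0.16 (Il2rg, Jak3 and Cish) and 0.14 (Stat5a). Il2 thus had an SD 2.27 times that of the next gene and 4.22 times the median of the other 9. In plain FPKM the highest KO library was 3.21 times the lowest for Il2, 1.86 times for Socs2, 1.62 times for Il2ra and 1.23 to 1.37 times for the other 7. The same ratio over WT libraries was 1.13 for Il2 and at most 1.06 for the others.

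Against the whole table, 57 of 10873 tested genes (0.524 percent) had a larger KO SD than Il2. Among the 3693 genes with a mean of 10 to 50 FPKM, the range that holds Il2, 9 (0.244 percent) did. Il2ra was exceeded by 7.13 percent of tested genes, Socs2 by 10.6 percent and Stat5a by 50.3 percent. The WT spread was unremarkable for Il2, with 37.5 percent of genes above it, and small for the others, from 78.4 percent of genes above Jak1 to 99.2 percent above Cish. In all 10 genes the KO SD was larger than the WT SD, as it was in 78.4 percent of tested genes. With 3 libraries a group these SDs are a description and were not tested.

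**Figure D3:**
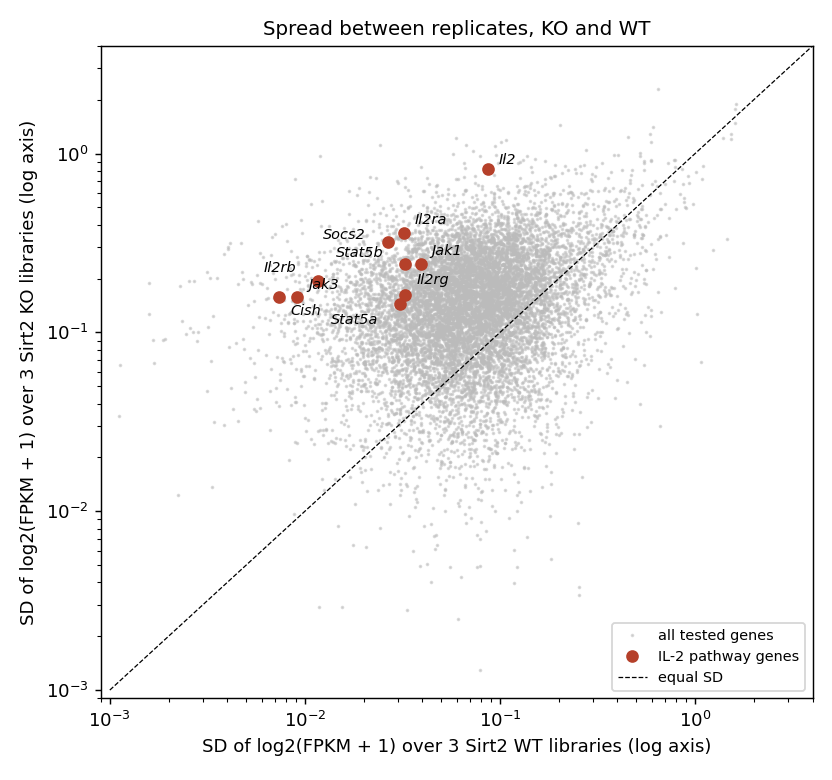
SD of log2(FPKM + 1) over the 3 Sirt2 KO libraries (vertical, log axis) against that over the 3 Sirt2 WT libraries (horizontal, log axis) for all tested genes (grey) and the 10 IL-2 pathway genes (red); the dashed line marks equal SD. All 10 genes lie above the line, with Il2 highest at a KO SD of 0.82 and the other 9 between 0.14 and 0.36.

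The KO libraries took 2 opposite orders across much of the pathway. Relative to the WT mean, on the log2(FPKM + 1) scale, Il2 was at 1.27, 0.69 and -0.35 in KO replicates 1 to 3, and Il2ra at -0.53, -0.37 and 0.16. Of the 10 genes 2 (Il2 and Il2rg) had KO replicates 1 and 2 above all WT libraries and KO replicate 3 below them, as did 9.16 percent of tested genes. The reverse order was found for 4 of 10 (Il2ra, Jak1, Jak3 and Stat5b) and for 14.9 percent of tested genes. Both orders were common in the table, and their counts were made after the values had been seen.

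**Figure D4:**
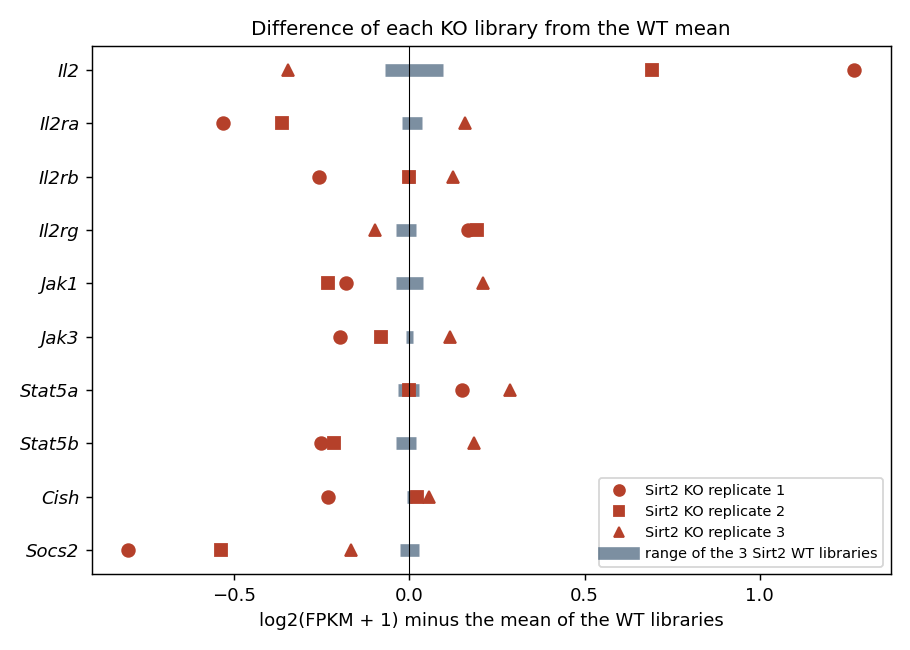
Difference of each Sirt2 KO library (red circle, square and triangle for replicates 1, 2 and 3) from the mean of the WT libraries on the log2(FPKM + 1) scale, one row per gene, with the range of the 3 Sirt2 WT libraries as a blue bar. Il2 runs from -0.35 to 1.27 with replicate 3 on the left, whereas for Il2ra, Jak1, Jak3 and Stat5b replicate 3 is the only KO library on the right.

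The relation of the values to transcript length also varied with the KO library. Across the 10873 tested genes, which are not independent, the Spearman correlation between transcript length and the difference from the WT mean was -0.33, -0.46 and 0.23 in KO replicates 1 to 3. The main transcripts of Il2 and Il2rg are short, at 1144 and 1670 bases, and those of Il2ra, Jak1, Jak3 and Stat5b are 4019 to 5062 bases long. Il2rb (4194 bases) and Stat5a (3888 bases) are about as long and had neither order, nor had Cish (2850 bases) and Socs2 (2222 bases). After trends with length and GC content had been removed from each library, Il2 was still at 1.19, 0.70 and -0.32 in KO replicates 1 to 3, with a KO SD of 0.77 that 0.647 percent of genes exceeded. Il2ra was at -0.48, -0.22 and 0.12, and Jak1 at -0.12, -0.11 and 0.16. Cish then took the Il2ra order, at -0.20, -0.044 and 0.074, with WT libraries between -0.015 and 0.013. With the trends removed and without KO replicate 3, Il2 (0.94, limma adjusted p = 0.0196), Il2ra (-0.35, limma adjusted p = 0.0428), Stat5b (-0.17, limma adjusted p = 0.0430) and Socs2 (-0.69, limma adjusted p = 0.0182) passed. Jak1 did not (-0.12, limma adjusted p = 0.129). In that fit 7.65 percent of all genes were called.

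Of 49 listed transcripts of the 10 genes 22 passed the filter. None was called, against 0.0417 percent of 19184 tested transcripts, and 1 had an unadjusted limma p under 0.05, against 5.57 percent. None was called without KO replicate 3 either, against 0.0273 percent of transcripts, and 11 of 22 had an unadjusted p under 0.05, against 15.0 percent of them all. Il2 has a single listed transcript (ENSMUST00000029275), so its spread was that of one isoform. The main Il2ra transcript (ENSMUST00000028111) made up 91.5 to 93.1 percent of Il2ra transcript FPKM in KO and 91.6 to 92.7 percent in WT. For Jak3, the transcript with the smallest p (ENSMUST00000110012, coding) was at 1.82, 1.75 and 1.97 FPKM in KO and at 4.87, 3.61 and 2.75 FPKM in WT, with no overlap between groups (log2 fold change -0.71, limma adjusted p = 0.767). The authors' deposited table gives this transcript a q of 0.0140. The main Jak3 transcript (ENSMUST00000051995) was at 29.9, 28.1 and 31.4 FPKM in KO but ranged over 23.9, 34.4 and 42.6 FPKM in WT, while the Jak3 gene value was nearly constant there.

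Isoform values also differed between WT libraries for Stat5a and Cish. The Stat5a transcript ENSMUST00000107356 was at 10.4 FPKM in WT replicate 2 and listed at 0 in the other 5 libraries, and the authors' deposited table gives it a q of 1.24e-08. It did not pass the filter here. The main Cish transcript (ENSMUST00000085102) made up 64.0 to 69.7 percent of Cish transcript FPKM in KO, against 42.8, 52.1 and 68.9 percent in WT replicates 1 to 3. Its groups overlapped (log2 fold change 0.33, limma adjusted p = 0.911).

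Other genes of the pathway were taken from lists. Among cytokines and receptors of the common gamma chain family, 11 of 12 listed genes were in the table, 6 were tested, and 0 passed in either direction with all libraries (median log2 fold change -0.21). Il9, a T cell cytokine, was at 45.4, 100.1 and 75.1 FPKM in KO and at 114, 127 and 129 FPKM in WT, without overlap but short of the threshold (log2 fold change -0.81, limma adjusted p = 0.806). Il21, a cytokine that promotes Th17 responses, was at 24.2, 26.3 and 41.8 FPKM in KO and at 39.0, 37.5 and 36.4 FPKM in WT. Il7r, the receptor of the survival cytokine IL-7, was at 4.77, 5.85 and 9.54 FPKM in KO and at 8.23, 8.24 and 7.60 FPKM in WT. Both had the Il2ra order, as had Il4ra, and in the fit without KO replicate 3 all of these 3 genes fell (limma adjusted p = 0.00779 for Il21, 0.0228 for Il7r and 0.0360 for Il4ra). That is 3 of 6, where 6.14 percent of all tested genes fell in that fit. With length and GC trends removed as well, Il21 alone of the 3 passed.

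Of the 7 other JAK and STAT genes 0 passed with all libraries (median 0.0063). In the fit without KO replicate 3, Stat2, a mediator of interferon signalling, fell (limma adjusted p = 0.0174). Stat3, which drives the Th17 programme, was at 42.5, 44.6 and 53.5 FPKM in KO and at 51.0, 49.7 and 49.1 FPKM in WT, and did not pass in that fit (limma adjusted p = 0.0527). Of 17 tested negative regulators 0 passed with all libraries (median -0.055). Leaving out KO replicate 3, 3 fell, the ubiquitin ligase genes Cbl and Cblb and the STAT3 inhibitor gene Socs3. Socs3 was at 21.9, 21 and 35.1 FPKM in KO and at 26.1, 26.0 and 25.6 FPKM in WT.

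Among 24 tested genes reported as STAT5 targets, 1 rose with all libraries and 0 fell (median -0.0097). The rise was Gzmb, a granzyme of cytotoxic granules that is also in the NK and cytotoxic marker list, at 19.2, 18.1 and 11.6 FPKM in KO and at 2.66, 2.76 and 2.97 FPKM in WT (limma adjusted p = 0.00675). Pim3, a survival kinase, was at 21.6, 21.7 and 20.1 FPKM in KO and at 18.4, 19.2 and 18.7 FPKM in WT (limma adjusted p = 0.843). Tnfrsf4, the costimulatory receptor OX40, was at 349, 366 and 322 FPKM in KO and at 304, 313 and 316 FPKM in WT (limma adjusted p = 0.843). Neither passed although their groups did not overlap. In the fit without KO replicate 3, 2 of 23 rose and 6 fell, where 4.0 percent of all tested genes rose and 6.14 percent fell. The falls were Myc, Pim1, Pim2, Bcl2, Osm and Lif, and the rises Gzmb and Bcl2l1, the gene of the survival protein BCL-XL. Bcl2, the related survival gene, was at 7.64, 6.68 and 17.4 FPKM in KO and at 11.6, 11.3 and 10.4 FPKM in WT. The kinase gene Pim1 was at 47.6, 44.9 and 63.3 FPKM in KO and at 59.0, 60.5 and 57.0 FPKM in WT. In each of the 6 that fell, KO replicate 3 lay above all WT libraries, and all 6 also passed with length and GC trends removed. Genes called without KO replicate 3 are named here after their values were seen where they are not among the 4 of smallest p in a list.

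Of 26 tested genes of the adaptor, PI3K and RAS arm 0 passed with all libraries (median -0.048). Akt2, a kinase of that arm, was at 27.2, 27.9 and 25.5 FPKM in KO and at 22.1, 22.3 and 22.4 FPKM in WT, with no overlap (log2 fold change 0.26, limma adjusted p = 0.600). It rose without KO replicate 3 (limma adjusted p = 0.0206), while Pik3r1 and Rictor fell in that fit. Of 14 tested T cell cytokines other than Il2, 0 passed with all libraries (median -0.16). Il22 was at 6.92, 6.21 and 9.30 FPKM in KO and at 5.59, 5.61 and 4.41 FPKM in WT, with no overlap (limma adjusted p = 0.843). When KO replicate 3 was left out, 1 of 13 rose, Tnfsf11, and 2 fell, Il21 and Il24.

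Transcription factors that act on the Il2 gene pointed both ways. Of 27 tested, 0 passed with all libraries (median 0.041). Bhlhe40, a T cell activation factor, was at 198, 173 and 173 FPKM in KO and at 155, 157 and 153 FPKM in WT, with no overlap (log2 fold change 0.22, limma adjusted p = 0.843). Rel, the NF-kB subunit c-Rel, was at 31.6, 20.6 and 21.2 FPKM in KO and at 18.8, 19.2 and 17.5 FPKM in WT, also without overlap (limma adjusted p = 0.843). Leaving out KO replicate 3, 5 rose and 5 fell of 27, where 4.0 percent of all tested genes rose and 6.14 percent fell. The rises were the AP-1 family genes Fos, Junb, Jund and Batf and the activation factor Egr2. Junb was at 370 and 359 FPKM in KO replicates 1 and 2 and 258 FPKM in KO replicate 3, against 291, 295 and 281 FPKM in WT. Fos was at 9.05, 6.09 and 4.19 FPKM in KO and at 4.83, 4.58 and 4.67 FPKM in WT. These 2 genes had the Il2 order. The falls were Zeb1 and Ikzf3, known as repressors of Il2, with Ikzf4, Satb1 and Nfatc3. Zeb1 was at 4.48, 4.25 and 7.86 FPKM in KO and at 7.29, 6.95 and 6.77 FPKM in WT. With length and GC trends removed, 3 of the 5 rises (Junb, Jund and Egr2) and 2 of the 5 falls (Zeb1 and Ikzf4) passed, where 7.65 percent of all genes were called.

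The 5 genes whose 6 values ran closest to those of Il2 were found among named genes whose mean over the libraries reached 5 FPKM. Likeness was the root mean square difference, over the 6 libraries, between log2(FPKM + 1) profiles each set to its own WT mean. Bcl2a1d, a survival gene of the BCL2 family, was closest at 0.11, with 90.2, 78.0 and 34.2 FPKM in KO and 40.7, 44.3 and 41.1 FPKM in WT. Its near-identical paralog Bcl2a1b came last of the 5, at 0.21, and reads may be shared between them. Tnfsf11, the TNF family ligand RANKL, followed Bcl2a1d at 0.12, with 51.5, 34.8 and 20.6 FPKM in KO and 22.9, 22.9 and 22.4 FPKM in WT. Glipr1 came next at 0.16, and Adora2a, an adenosine receptor gene, at 0.21. All 5 had their highest value in KO replicate 1, as Il2 did, which their choice by likeness to Il2 favours. Their profiles are a description with no test.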

How the data were processed

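Groups and replicate numbers came from the sample titles. The authors deposited FPKM per gene and per transcript, 1 column for each library. Trimming, alignment and assembly tools (HISAT2 and StringTie, with cutadapt and FastQC) and the count models edgeR and DESeq2 are listed, with no versions or roles, in the submitters' processing notes, which also name the build mm9. However, 73203 of 73430 transcript IDs found in GENCODE M21 (GRCm38) had the same coordinates there, so GRCm38 is used. The deposited fold ratio equalled mean KO over mean WT FPKM within 0.1 percent for 24087 of 24182 genes. The log2 column deposited beside it is its logarithm. The authors' p-value and q-value for each feature come from a tool that the sources used here do not give. Deposited enrichment results were not used.

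Low single-exon values fell on multiples of a common step in at most 12.5 percent of cases within 0.02 steps, so read counts could not be recovered, and a count test was not used. How FPKM was scaled ties each value to its library's total. Features reaching 1 FPKM in 3 or more of the 6 libraries were tested on log2(FPKM + 1), which understates changes of low genes, with limma 3.58.1 in R 4.3.3, a variance trended on the mean, and Benjamini-Hochberg adjustment over all of them. "Rose" and "fell" mean adjusted p under 0.05. The fit was tested on simulated data. Alternatives are in the closing section. Removal of length and GC trends (splines per library, values for 99.6 percent of tested genes) was added after the data were seen.

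The 10 genes and all lists were chosen with earlier results of these data known. Named genes are the 10, up to 4 genes per list with the smallest p and any called, 5 genes nearest Il2 in profile, and up to 4 transcripts per gene.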

Additional observations from a re-analysis of the deposited data

How the results depend on the processing

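No call of the 10 genes was made with all 6 libraries under median scaling, no filter, a filter at 5 FPKM (which leaves out Socs2), adjusted p under 0.01, no mean trend, a pseudocount of 0.1, the replicate block or removal of length and GC trends. Leaving out 1 library in turn gave 0 to 5 calls among the 10, the 5 without KO replicate 3, and 4 without it once length and GC trends were removed as well. Over all genes there were 12 calls, and 5 with the filter at 5 FPKM, 7 at adjusted p under 0.01, 0 to 1088 when 1 library was left out (0, 6 and 1088 without KO replicates 1, 2 and 3, and 6, 1 and 4 without WT replicates 1, 2 and 3) and 817 without KO replicate 3 with trends removed. Over all transcripts there were 8, and 4 without a filter, 25 without the mean trend, 3 with the replicate block and 1 to 6 when 1 library was left out (4 and 5 without KO replicates 2 and 3, and 1 without each WT library). The cause of these changes was not tested. Of 149 fold changes of the 10 genes under alternatives, 136 kept their sign and stayed uncalled, 9 became calls and 4 changed sign, all near 0. Part of this was fixed in advance. The changes of filter, no mean trend, adjusted p under 0.01 and the replicate block leave each fold change as it was. Its sign could not change there, nor could the stricter threshold add a call. With 1 library left out, Il2rb ran from -0.13 to 0.062, Jak3 from -0.14 to 0.017 and Cish from -0.11 to 0.038, each positive without KO replicate 1, and Jak1 from -0.21 to 0.014, positive without KO replicate 2. The Il2 fold change ran from 0.17 to 0.98. The ratio of the Il2 KO SD to the median of the other 9 genes was 4.22, and 3.95 as a coefficient of variation, 4.45 after median scaling, 4.35 at a pseudocount of 0.1 and 3.55 to 4.24 when 1 KO library was left out.

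Deviations of same-numbered KO and WT libraries from their group means correlated at 0.0067, -0.017 and -0.076 across genes. Those of unlike-numbered libraries correlated at -0.11 to 0.12. The labels give no pairing, and these correlations cannot show whether same-numbered libraries shared an animal, a culture or a batch. The replicate block gave 13 calls over all genes and 0 among the 10. Unknown depth limits the transcripts of low level most, and with 3 libraries a group an exact test cannot go below p = 0.1.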

Other observations

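Ratios between pathway genes within a library do not depend on the library's total. They can still carry its trend with transcript length, for which they were not corrected. The main transcripts have 1144 bases for Il2 and 4412 for Il2ra, and 3888 for Stat5a and 5062 for Stat5b. Il2 FPKM was 23.2, 13.7 and 4.47 percent of Il2ra FPKM in the KO libraries, against 6.17, 7.03 and 6.19 percent in WT replicates 1 to 3, so that KO libraries lay on both sides of the WT range. In gene FPKM, Stat5a over Stat5b was 1.14, 0.993 and 0.919 in KO and 0.859, 0.846 and 0.857 in WT. All KO libraries were above all WT libraries in this ratio, including KO replicate 3 (exact two-sided permutation p = 0.1, the smallest possible). In WT replicate 1, 2 Stat5a transcripts were at 39.1 and 33.9 FPKM beside a gene value of 39.7. Those of Stat5b were at 44.3 and 6.05 FPKM beside 46.2, so the size of this ratio depends on which values are used. Both ratios were chosen after the values had been seen, and how reads shared by the STAT5 paralogs were counted is unknown.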
